A study of Sus scrofa with 102 samples.

Results

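The genes described here carry the symbols of families of growth factors, their receptors and binding proteins, and components of Wnt, Notch, receptor tyrosine kinase, G protein and adipose hormone signalling. Some match by symbol and not by role, namely LEPRE1, TGFBI, FGF13 and the probe named MAPK4, as stated where each is described. They were the genes that the study listed as different between 2 pig breed types in fat, liver or muscle and whose symbols begin with the names of these families, apart from FGF2, PDGFRA and INSIG1. This gave 31 genes of the 1526 that the lists name, measured by 45 of the 43221 probes on the array. A single probe represented 21 genes, and 10 genes had between 2 and 4 probes, of which the brightest is given unless stated. Because the difference between breed types chose the genes, values in the tissue and age for which a gene was listed are given as a description only. Differences between ages and between tissues, and breed type differences in a tissue or age for which a gene was not listed, were tested.

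All pigs were female and were fed a standard swine diet. LWDL pigs were offspring of LWD crossbred sows (Landrace, Large White and Duroc) and a Landrace boar, and LWDM pigs were offspring of LWD sows and a Meishan boar. The study used a single boar for each breed type, so the breed type and the sire cannot be told apart. Liver and longissimus dorsi muscle were taken from 85-day-old fetuses (6 LWDL and 6 LWDM). Subcutaneous fat, liver and muscle were taken from 12-day-old sucklings (5 LWDL and 6 LWDM) and from 5-month-old fattening pigs (8 LWDL and 7 LWDM). Each of the 102 arrays compared Cy3-labeled RNA of 1 animal with Cy5-labeled RNA of a common control from the liver of LWD sows, with no exchange of the dyes. All levels below are log2 ratios of the sample to that control, so a value of 0 means the level of sow liver, and ratios of different probes are not compared with each other. A positive breed type difference means a higher level in LWDM.

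Insulin-like growth factor 1 (IGF1) is the hormone that carries much of the growth effect of growth hormone. It is made in the liver and in many other tissues, and binding proteins (IGFBP) hold it in blood and at cells and limit its access to the receptor. Members of the transforming growth factor beta family (TGF-beta, activins and bone morphogenetic proteins) act through paired receptors, and follistatin (FST) traps activin and myostatin, a brake on muscle growth. Wnt ligands act through frizzled receptors and are held back by Dickkopf proteins, and Wnt signalling restrains the formation of fat cells. Receptor tyrosine kinases act through mitogen-activated protein kinases (MAPK), which dual-specificity phosphatases (DUSP) switch off, while regulators of G protein signalling (RGS) end the signal of hormone receptors coupled to G proteins. Leptin (LEP) is the hormone by which fat cells report energy stores.

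All tests were made with limma over every probe of the array, and p-values were adjusted by the Benjamini-Hochberg method. A probe was called if it differed more than 2-fold and its adjusted p was under 0.05. Only probes that were bright enough throughout 1 of the groups were tested, and which of the 31 genes entered a comparison therefore depended on their levels. The scanner marked 65.7% to 81.3% of the spots of an array as well above background. Arrays of different tissues and ages lay on different slides, so the slide cannot be told apart from these. Among the arrays, 2 stood apart from their groups. The second LWDL array of 12-day-old muscle had 36 of the 45 probes outside the range of its group, with an IGFBP1 log2 ratio of 1.82 where the other 4 arrays lay between -7.44 and -6.66. The second LWDL array of fetal liver had 35 of 45 probes outside the range of its group, with an IGFBP1 log2 ratio of -0.62 where the other 5 lay between 2.52 and 4.56. The labels of 2 sets of arrays were in doubt. The first check used 17 probes called in the same direction between breed types in 12-day-old and 5-month-old fat and liver and 5-month-old muscle. Over these probes, 8 of the 11 arrays of 12-day-old muscle were closer to the breed type they were not labelled as. The 5-month-old muscle arrays helped to choose these probes and were no comparison for this count. Fetal muscle did not choose them, and there 0 of 6 LWDL and 0 of 6 LWDM arrays were closer to the other breed type. For fat, the study's table of listed genes gave arrays other ages than the labels. Under the labels 24 of 26 fat arrays correlated best with the liver array of the same animal number, and the labels were kept. With the ages of that table this held for 2 of 5 LWDL and 1 of 6 LWDM fat arrays. For fat, both ages were treated as used in choosing a gene. Fewer cells of a type and less RNA per cell cannot be told apart in these tissues.

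**Figure D1:**
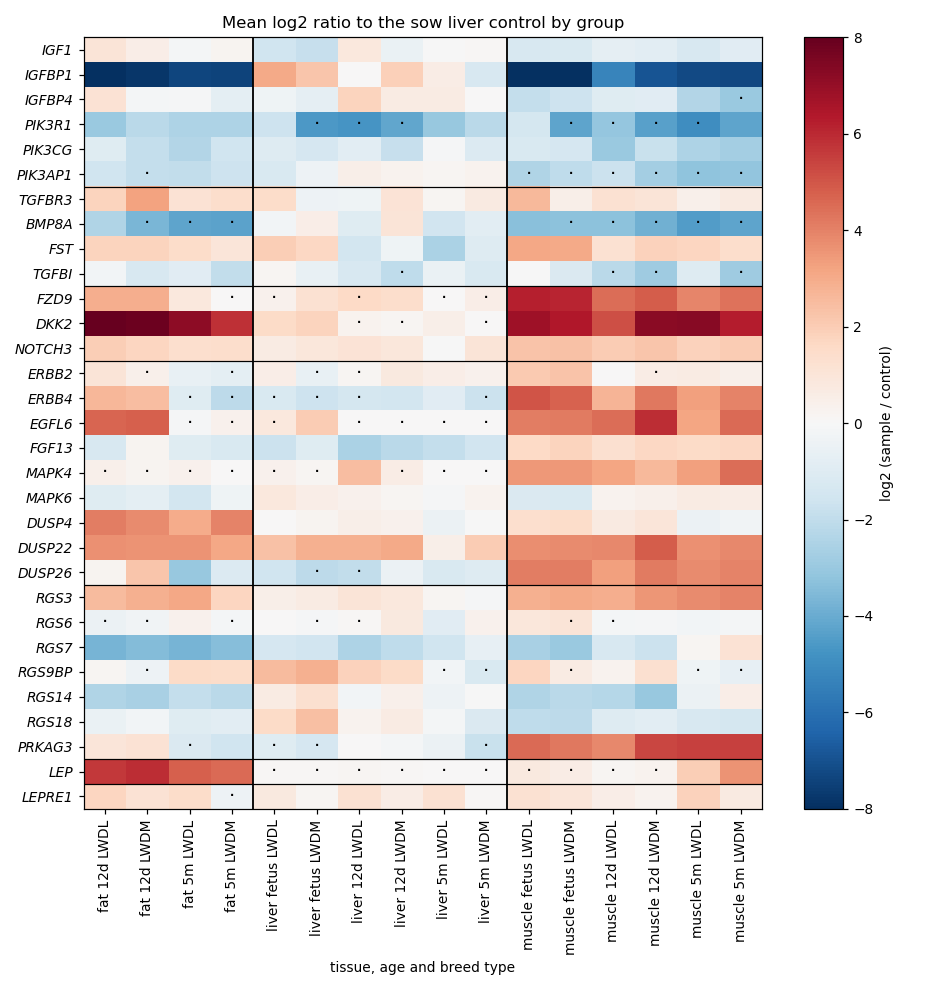
Mean log2 ratio to the sow liver control (colour, drawn up to 8 in either direction) for the 31 genes in rows, grouped by role, and the 16 groups in columns. A dot marks a group in which the probe was well above background on no array. IGFBP1 is low in fat and muscle, LEP and DKK2 are high in fat, and PRKAG3, FZD9 and ERBB4 are high in muscle.

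More of these genes differed between tissues than between ages or breed types. Between 55.6% and 84.2% of the tested member probes were called between 2 tissues of the same age. In fetuses, 32 of 38 tested probes were called between liver and muscle, where 34.7% of all tested probes were called. In 12-day-olds the counts were 28 of 37 between fat and liver (30.9% of all probes), 20 of 36 between fat and muscle (25.7%) and 27 of 35 between liver and muscle (36.1%). In 5-month-olds they were 24 of 35 between fat and liver (36.1%), 24 of 37 between fat and muscle (35.7%) and 31 of 40 between liver and muscle (43.5%). In 5-month-olds, 4 of 22 genes tested against both other tissues were called above both in liver, 9 of 22 in muscle and 3 of 19 in fat, against 13%, 11.5% and 8.54% of all probes so tested, and the other 15 were not called above both others in any tissue.

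The genes highest in liver at 5 months were IGFBP1, BMP8A, PIK3AP1 and PIK3CG. IGFBP1, a binding protein that the liver releases in fasting and under stress, had log2 ratios of -0.62 to 4.56 (median 2.68) in fetal liver and -8.59 to -8.05 (median -8.38) in fetal muscle. The fetal ranges did not overlap, and liver was higher by 10.97 ± 0.40 (SE), adjusted p = 4.31e-18, the largest tissue difference among the 31 genes. At 5 months liver was above muscle by 6.95 ± 0.30 (SE), adjusted p = 1.04e-19. Fat differed from liver by -7.09 ± 0.30 (SE), adjusted p = 6.02e-20. BMP8A, a ligand of the bone morphogenetic protein family, lay at -2.05 to -0.23 (median -1.27) in liver at 5 months and at -4.74 to -3.84 (median -4.44) in muscle, where it was well above background on no array. Its level in liver was at least 1.56-fold higher than in muscle (adjusted p = 1.11e-20). Such bounds were computed from the Cy3 channel after a different normalization from that of the ratios and are open to dye bias, since the dyes were not exchanged. The adjusted p beside a bound is that of the log2 ratio, and such a probe passed the filter on dim probes through its brighter group only. PIK3AP1, an adaptor that links immune receptors to phosphoinositide 3-kinase, lay at -0.13 to 0.67 (median 0.26) in liver and -3.44 to -0.91 (median -1.72) in fat at 5 months. Its ratio was called lower in fat than in liver (adjusted p = 9.45e-12). PIK3CG, the catalytic subunit of phosphoinositide 3-kinase used mainly by blood cells, was higher in liver than in muscle by 2.03 ± 0.25 (SE), adjusted p = 6.78e-09, with overlapping ranges, and was well above background on 6 of 15 muscle arrays. In fat PIK3AP1 was well above background on 2 of 15 arrays and passed the filter on dim probes through liver only, so no fold is given. With normexp background correction and loess normalization the liver excess over muscle was under 2-fold for PIK3CG (0.70), PIK3AP1 (0.76) and BMP8A (0.63), as was fat minus liver (-0.49, -0.57 and -0.64), and IGFBP1 kept both calls. The markers fixed for liver cells and red cell precursors had no named probe here, so the cell types of the liver samples could not be checked.

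The genes highest in muscle at 5 months were PRKAG3, ERBB4, DUSP26, FZD9, EGFL6, MAPK4, FGF13, RGS3 and RGS7. PRKAG3, the regulatory subunit of AMP-activated protein kinase that is particular to skeletal muscle and is known in pigs for its effect on glycogen, lay at 5.01 to 5.74 (median 5.44) in muscle and -2.60 to 0.72 (median -1.34) in liver. The ranges did not overlap, and PRKAG3 was called lower in liver (adjusted p = 1.42e-23). In liver it was well above background on 3 of 15 arrays and passed the filter on dim probes through muscle only, so no fold is given. ERBB4, a receptor for neuregulins, lay at 3.70 to 5.65 (median 5.04) in fetal muscle and -2.23 to -0.11 (median -1.49) in fetal liver, where it was well above background on no array, and was at least 7.41-fold higher in muscle (adjusted p = 2.64e-18). The other ERBB4 probe was dimmer, and over the 102 arrays the 2 probes correlated with r = 0.459, the lowest value of the 10 genes with several probes. DUSP26, a phosphatase, lay at 3.40 to 4.18 (median 3.91) in muscle and -4.61 to 2.27 (median -2.25) in fat. Fat was lower by 6.01 (adjusted p = 2.41e-16), again without overlap, and was well above background on 6 of 15 arrays. FZD9, a Wnt receptor, had its highest values in fetal muscle, at 5.50 to 6.74 (median 6.13). It was higher there than in fetal liver (adjusted p = 5.83e-16), where it was well above background on 1 of 12 arrays and listed at 0 on 4, so no fold is given. FGF13, which in spite of its name is an intracellular protein that binds sodium channels and is not released as a growth factor, was higher in muscle than in liver at each age, by 3.05 in fetuses, 3.84 in 12-day-olds and 3.32 in 5-month-olds (adjusted p from 2.64e-15 to 7.29e-13). The 4 probes of RGS3, which shortens signals of G protein-coupled receptors, agreed over all arrays (r of at least 0.988), and RGS3 was above liver by 3.82 in muscle at 5 months (adjusted p = 1.77e-30). Muscle at 5 months, with normexp and loess, was under 2-fold above fat for EGFL6 (-0.95 for fat minus muscle), MAPK4 (-0.74) and FZD9 (-0.73), and above liver for MAPK4 (-0.86 for liver minus muscle) and FZD9 (-0.79). With the ages of the study's table for the fat arrays, EGFL6 did not pass the test between fat and muscle at 5 months (-0.27, adjusted p = 0.64).

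The genes highest in fat at 5 months were LEP, DUSP4 and RGS9BP, and at 12 days LEP, DKK2, DUSP4 and TGFBR3. LEP had log2 ratios of 5.41 to 6.64 (median 5.66) in fat at 12 days and was well above background on none of the 11 liver arrays and none of the 11 muscle arrays of that age. It was at least 24.4-fold higher in fat than in liver (adjusted p = 2.06e-21) and at least 23.1-fold higher than in muscle (adjusted p = 1.05e-15). At 5 months it was higher in fat than in liver too (adjusted p = 5.88e-34), but in all 15 liver arrays of that age LEP was listed at exactly 0, which is no measured level, and no fold is given. DKK2, an extracellular modulator of Wnt signalling, lay at 6.44 to 8.90 (median 8.50) in fat and -0.25 to 7.79 (median 7.01) in muscle at 12 days, and fat was higher by 1.86 ± 0.67 (SE), adjusted p = 0.0196. Without the muscle array that stood apart, the lowest muscle value was 5.44. At 5 months DKK2 did not pass the test between fat and muscle (-0.27 ± 0.28 (SE), adjusted p = 0.381), while in liver it was listed at 0 on 14 of 15 arrays. DUSP4, a nuclear phosphatase of MAP kinases, lay at 1.86 to 4.37 (median 3.70) in fat and -0.86 to 0.10 (median -0.40) in muscle at 5 months, without overlap, and fat was higher by 3.82 ± 0.18 (SE), adjusted p = 1e-18. TGFBR3 (betaglycan), which presents TGF-beta to its signalling receptors, was higher in fat than in liver by 2.12 ± 0.29 (SE), adjusted p = 7.02e-07 at 12 days. RGS9BP was well above background on all 15 fat arrays at 5 months and on no liver or muscle array, so that it passed the filter on dim probes through fat only. It was at least 1.28-fold higher than in liver and 1.24-fold higher than in muscle. The log2 ratio differences were 0.42 and 0.31 with normexp and loess, both under 2-fold. With the ages of the study's table for the fat arrays, the differences between fat and muscle at 12 days did not pass the test for DKK2 (0.31, adjusted p = 0.705) and TGFBR3 (0.21, adjusted p = 0.575), and TGFBR3 was under 2-fold against liver (0.88).

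RGS14 was higher in liver than in muscle at 12 days, and the same comparison did not pass the test at 5 months. At 12 days its log2 ratios were -0.38 to 0.81 (median 0.28) in liver and -3.52 to 0.22 (median -2.96) in muscle, and liver was higher by 2.83 ± 0.31 (SE), adjusted p = 6.44e-08. The highest muscle value came from the array that stood apart, and no other value in muscle was above -2.63. At 5 months the values were -0.57 to 0.38 (median -0.38) in liver and -1.18 to 0.85 (median 0.11) in muscle, which overlapped, and the difference was -0.20 ± 0.12 (SE), adjusted p = 0.127. Whether the tissue difference changed with age was not tested.

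Among the 15 genes called above both other tissues in none at 5 months, IGF1 did not pass the test between fat and liver at 5 months (log2 difference 0.01 ± 0.11 (SE), adjusted p = 0.918) and was lower in muscle than in either, by 1.13 against liver (adjusted p = 5.9e-12) and 1.14 against fat (adjusted p = 1.01e-13). IGFBP4, a binding protein that inhibits IGF1, was likewise called lower in muscle than in liver (adjusted p = 2.19e-12). It was well above background on 1 of 15 muscle arrays and passed the filter on dim probes through liver only, so no fold is given. FST was lower in liver than in fat by 3.09 and than in muscle by 3.41 (adjusted p = 3.28e-11 and 1.16e-13), with no overlap. DUSP22 was lower in liver than in fat by 2.16 (adjusted p = 2.77e-10). NOTCH3, a receptor of vascular smooth muscle and pericytes, was lower in liver than in muscle by 1.49 (adjusted p = 1.83e-09). With normexp and loess, liver minus muscle was under 2-fold for IGF1 (0.96), IGFBP4 (0.97) and NOTCH3 (-0.49), and fat minus muscle for IGF1 (0.89). RGS6 was well above background in at most 4 arrays of any group and entered no comparison.

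The ages were compared next, with both breed types in one fit. Of the tested member probes, 11 of 35 were called in fat between 12 days and 5 months (1 higher and 10 lower at 5 months), where 16.2% of all tested probes were called (8.29% higher and 7.95% lower). In liver, 12 of 28 were called between the fetus and 12 days (3 higher and 9 lower, against 22.4% of all probes, 10.5% higher and 11.9% lower) and 11 of 30 between 12 days and 5 months (3 higher and 8 lower, against 28.1%, 19.2% higher and 8.86% lower). In muscle, 15 of 35 were called between the fetus and 12 days (6 higher and 9 lower, against 27.2%, 12.2% higher and 15% lower) and 7 of 34 between 12 days and 5 months (4 higher and 3 lower, against 24.8%, 17% higher and 7.81% lower). The last share is below that of all probes.

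**Figure D2:**
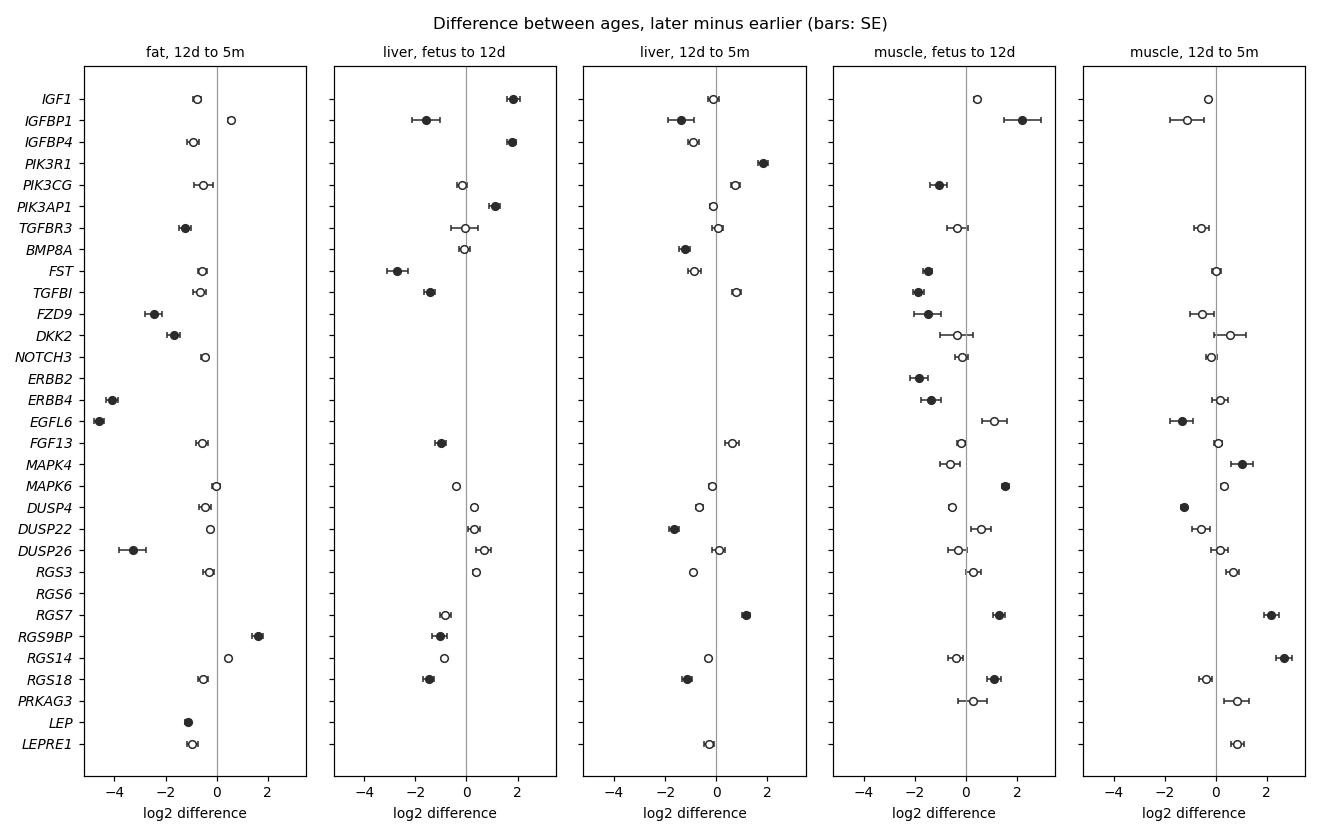
Difference between ages (later minus earlier, log2) with its standard error for the 31 genes in rows and the 5 age comparisons in panels. Filled points were called, open points were tested and not called, and genes without a point were not tested. The points of EGFL6 and ERBB4 in fat, PIK3R1 in liver between 12 days and 5 months and TGFBI in muscle between the fetus and 12 days rest on an age at which the probe was well above background on no array. RGS14 and RGS7 rose in muscle between 12 days and 5 months, by 2.68 and 2.17.

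In liver, genes of the IGF axis moved in both directions around birth. IGF1 lay at -2.13 to 0.35 (median -1.91) in fetal liver and -1.48 to 1.45 (median 0.10) at 12 days, and rose by 1.84 ± 0.27 (SE), adjusted p = 1.73e-06. The highest fetal value was that of the array that stood apart, and without it IGF1 rose by 1.99 ± 0.22 (SE), adjusted p = 3.05e-08. IGFBP4 rose by 1.77 ± 0.18 (SE), adjusted p = 8.31e-09 over the same interval and PIK3AP1, well above background on 3 of 12 fetal arrays, by 1.11 ± 0.21 (SE), adjusted p = 6.12e-05. Both were under 2-fold with normexp and loess (0.97 and 0.28), as was PIK3AP1 in LWDM alone (0.64). IGFBP1 fell by 1.59 from the fetus to 12 days (adjusted p = 0.0105) and by 1.37 from 12 days to 5 months (adjusted p = 0.0144). From the fetus to 12 days it fell by 2.95 in LWDL alone (adjusted p = 0.0113), and in LWDM alone the difference was -0.35 (adjusted p = 0.43). The change of the breed type difference over this interval did not pass the test (2.61, adjusted p = 0.102), but did without the arrays that stood apart (3.33, adjusted p = 0.00533). In the later interval, the IGFBP1 difference was -3.17 in LWDM alone and 0.51 in LWDL alone. The breed type difference at 5 months chose this gene, so these values are a description. PIK3R1, the regulatory subunit of phosphoinositide 3-kinase, was well above background on none of 11 liver arrays at 12 days and on 14 of 15 at 5 months. Its ratio was called higher at 5 months (adjusted p = 1.99e-09), but its mean log2 Cy3 signal of 6.77 was equal to the bound for the 12-day-old arrays, so no fold is given, and with normexp background correction and loess normalization the difference was -0.02 (adjusted p = 0.876).

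FST was the member with the largest fall in liver. It lay at -1.35 to 3.17 (median 2.02) in fetal liver, -2.73 to 0.00 (median -0.58) at 12 days and -3.60 to 0.29 (median -2.05) at 5 months. It fell by 2.70 around birth (adjusted p = 3.69e-06) and, without the array that stood apart, by 2.96 (adjusted p = 1.37e-08). The 4 FST probes agreed over all arrays (r of at least 0.978). FST fell in muscle too, from 2.79 to 3.31 (median 3.09) in the fetus to -0.19 to 2 (median 1.78) at 12 days, by 1.5 (adjusted p = 1.62e-07), without overlap. TGFBI is an extracellular matrix protein induced by TGF-beta rather than a part of its pathway. In liver it was called lower at 12 days than in the fetus (adjusted p = 4.09e-06). There it was well above background on 1 of 11 arrays at 12 days and passed the filter through the fetal arrays only, so no fold is given. In muscle it was well above background on no array at 12 days and passed the filter through the fetal arrays only, with a bound of at least 1.13-fold lower then. With normexp and loess both differences were under 2-fold, -0.30 in liver and -0.29 in muscle. BMP8A fell by 1.24 in liver between 12 days and 5 months (adjusted p = 2.18e-05). RGS18, a regulator of platelets and their precursors, fell in liver in both intervals, by 1.48 and 1.13 (adjusted p = 1.9e-06 and 1.21e-05). Fetal liver forms blood cells, and no marker of red cell precursors had a named probe here. DUSP22, a phosphatase that acts on kinases of the JNK branch, fell in liver between 12 days and 5 months by 1.64 (adjusted p = 4.11e-08), with no overlap. FGF13 fell by 1.01 around birth (adjusted p = 0.000269) and was not called without the array that stood apart (-0.84, adjusted p = 9.77e-06). Between 12 days and 5 months its second, dimmer probe was called higher (adjusted p = 1.9e-05). That probe was well above background on 1 of 11 arrays at 12 days and passed the filter through the 5-month arrays only, so no fold is given. The first probe differed by 0.62 ± 0.26 (SE), adjusted p = 0.0281. RGS3 was called through 3 of its 4 probes, which fell by 1.04 to 1.05, and the brightest probe lay just under 2-fold (fall of 0.90). RGS7 rose by 1.17 ± 0.16 (SE), adjusted p = 1.58e-07 after 12 days. RGS9BP, an anchor protein of RGS9 known from photoreceptors, fell by 1.04 around birth (adjusted p = 0.00262). With normexp and loess, FGF13 (-0.61) and RGS9BP (-0.84) around birth and BMP8A (-0.67), RGS18 (-0.64) and RGS7 (0.44) after 12 days were under 2-fold. In LWDL alone FGF13 around birth (-0.82, adjusted p = 0.112), BMP8A (-0.58, adjusted p = 0.0628) and RGS18 (-0.44, adjusted p = 0.0529) after 12 days did not pass the test, and RGS7 was under 2-fold (0.91). DUSP22 was under 2-fold in LWDM alone (-0.94).

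In fat, 8 of 23 tested genes were called, 7 of them with a lower log2 ratio at 5 months. EGFL6, a secreted protein with epidermal growth factor repeats, lay at 4.37 to 5.63 (median 4.65) at 12 days and -1.67 to 1.48 (median 0.00) at 5 months, when it was well above background on no array. It was at least 7.08-fold lower at 5 months (adjusted p = 1.25e-15). ERBB4 went from 1.44 to 3.75 (median 2.51) to -2.30 to 0.11 (median -1.76) and was at least 2.05-fold lower (adjusted p = 1.24e-13). DUSP26 fell by 3.28, DKK2 by 1.68 and TGFBR3 by 1.24 (adjusted p of 1.75e-05 or lower). DUSP26 was well above background on 6 of 15 arrays at 5 months, and in LWDL alone TGFBR3 did not pass the test (-0.66, adjusted p = 0.0905). FZD9 was called lower at 5 months (adjusted p = 3.15e-07), when it was well above background on 1 of 15 arrays and listed at 0 on 8, so no fold is given, and with normexp and loess it was under 2-fold (-0.52). The LEP log2 ratios were 5.41 to 6.64 (median 5.66) at 12 days and 4.32 to 5.15 (median 4.60) at 5 months and did not overlap, and were lower at 5 months by 1.13 (adjusted p = 1.66e-09). The channels did not move this way. The mean log2 Cy3 signal of LEP, which is that of the sample, was 10.91 at 12 days and 12.96 at 5 months, and the Cy5 signal of the common control on the same spots was 5.18 and 8.37, so the lower ratio does not show less LEP RNA in fat. Among the 56 called age differences of member probes, LEP was the one with Cy3 against the ratio both on this Cy3 scale (loess and quantile normalized) and on the processed signal. RGS9BP was called higher at 5 months (adjusted p = 3.2e-07). At 12 days it was well above background on 1 of 11 arrays and passed the filter on dim probes through the 5-month arrays only, so no fold is given. With normexp and loess it rose by 0.40, under 2-fold. The 8 skeletal muscle fibre genes with a named probe moved in the same direction in fat. Their mean log2 ratio per array ran from 3.63 to 5.48 at 12 days and from 0.82 to 4.34 at 5 months, against 4.97 to 5.79 in muscle at 5 months. EGFL6, ERBB4, DUSP26 and FZD9 were high in muscle, and the part of muscle RNA in their lower levels in fat was not tested. The adipocyte genes PLIN1, LPL and PPARG had a mean log2 ratio of 5.35 to 5.98 in fat at 12 days and 5.06 to 6.18 at 5 months. With the ages of the study's table, the differences of DUSP26, DKK2, TGFBR3, LEP and RGS9BP turned their direction, and the other 3 called genes did not pass the filter on dim probes. With normexp background correction and loess normalization the LEP ratio differed by -0.01 (adjusted p = 0.863).

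In muscle, RGS14 rose from -3.52 to 0.22 (median -2.96) at 12 days to -1.18 to 0.85 (median 0.11) at 5 months, by 2.68 ± 0.31 (SE), adjusted p = 3.05e-08, and RGS7 by 2.17 ± 0.30 (SE), adjusted p = 6.62e-07. RGS14 is a regulator that also binds Ras and Rap, and RGS7 is known mainly from neurons. Without the array that stood apart RGS14 rose by 3.02 ± 0.17 (SE), adjusted p = 3.26e-14, so the rise was larger than with it. RGS7 rose by 1.28 around birth as well (adjusted p = 8.16e-05), but the second probe of RGS7 was dim. MAPK6, an atypical MAP kinase (ERK3), rose between the fetus and 12 days from -1.81 to -0.79 (median -1.24) to -0.30 to 0.86 (median 0.36), by 1.54 ± 0.14 (SE), adjusted p = 2.5e-09, without overlap. IGFBP1 rose in muscle around birth by 2.21 ± 0.73 (SE), adjusted p = 0.0102, and by 1.37 ± 0.15 (SE), adjusted p = 1.84e-08, without the array that stood apart. ERBB2, a co-receptor of the epidermal growth factor family, fell by 1.85, ERBB4 by 1.36, and FZD9 by 1.5 (adjusted p = 0.000102, 0.00424 and 0.0132). ERBB2 was well above background on 2 of 11 arrays at 12 days and under 2-fold with normexp and loess (-0.42), ERBB4 did not pass the test in LWDM alone (-0.5, adjusted p = 0.172), and FZD9 did not pass in LWDL alone (-1.76, adjusted p = 0.0744) or LWDM alone (-1.26, adjusted p = 0.104). The fits of a single breed type in muscle rest on the labels of the 12-day-old arrays, which were in doubt. The PIK3CG ratio was called lower at 12 days (-1.07, adjusted p = 0.00731), but with normexp and loess it differed by -0.09 (adjusted p = 0.448) and the Cy3 level was 6.96 in fetuses and 6.97 at 12 days. RGS18 rose by 1.11 (adjusted p = 0.00105), but by 0.60 with normexp and loess, and did not pass the test in LWDL alone (0.99, adjusted p = 0.0632). RGS7 rose by 0.92 around birth with normexp and loess, under 2-fold. One of the DUSP22 probes rose by 1.14 ± 0.37 (SE), adjusted p = 0.00906 and the other differed by 0.60 ± 0.39 (SE), adjusted p = 0.174. Without the array that stood apart both were called, with 1.54 and 1.04, and so was EGFL6 with 1.68 (adjusted p = 4.97e-10). Between 12 days and 5 months DUSP4 fell by 1.23 (adjusted p = 3.89e-09), without overlap, and EGFL6 by 1.34 (adjusted p = 0.0122). The 2 falls were under 2-fold with normexp and loess (-0.82 and -0.64), and in LWDL alone EGFL6 did not pass the test (-1.3, adjusted p = 0.24). The dimmer ERBB4 probe was well above background on no array at 12 days and was at least 1.22-fold higher at 5 months (adjusted p = 2.76e-08), while the brighter one did not pass the test (0.17 ± 0.30 (SE), adjusted p = 0.652). The probe named MAPK4 rose by 1.02 ± 0.42 (SE), adjusted p = 0.0343 and was not called without the array that stood apart (0.89, adjusted p = 0.0597) or with normexp and loess (0.26, adjusted p = 0.0625). The pig gene that RefSeq gives for this probe is ZNF280D, a zinc finger gene and not the kinase. LEP was well above background in none of 23 muscle arrays of fetuses and 12-day-olds and in 8 of 15 at 5 months.

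The breed types were compared within each tissue and age. The counts include the comparisons for which the genes were listed, in which the choice of genes fixes the count, and nothing is read from those. In 12-day-old liver, 12 of 26 tested member probes were called, where 1.7% of all tested probes were called. All 9 tested probes of genes listed for that comparison were called, and 3 of the 17 probes of other genes. In 5-month-old liver, 9 of 30 were called (2.19% of all), among them 1 of the 21 probes of genes not listed there. In fetal liver none of 25 was called (0.834% of all). In fat, 3 of 34 were called at 12 days (1.47%) and 9 of 27 at 5 months (3.08%). In muscle, 3 of 34 were called in fetuses (1.51%), none of 31 at 12 days (0%) and 6 of 34 at 5 months (1.4%). In muscle no probe was called at an age for which its gene was not listed. In fat every called probe was of a gene listed for fat, but under the other age in the study's table.

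**Figure D3:**
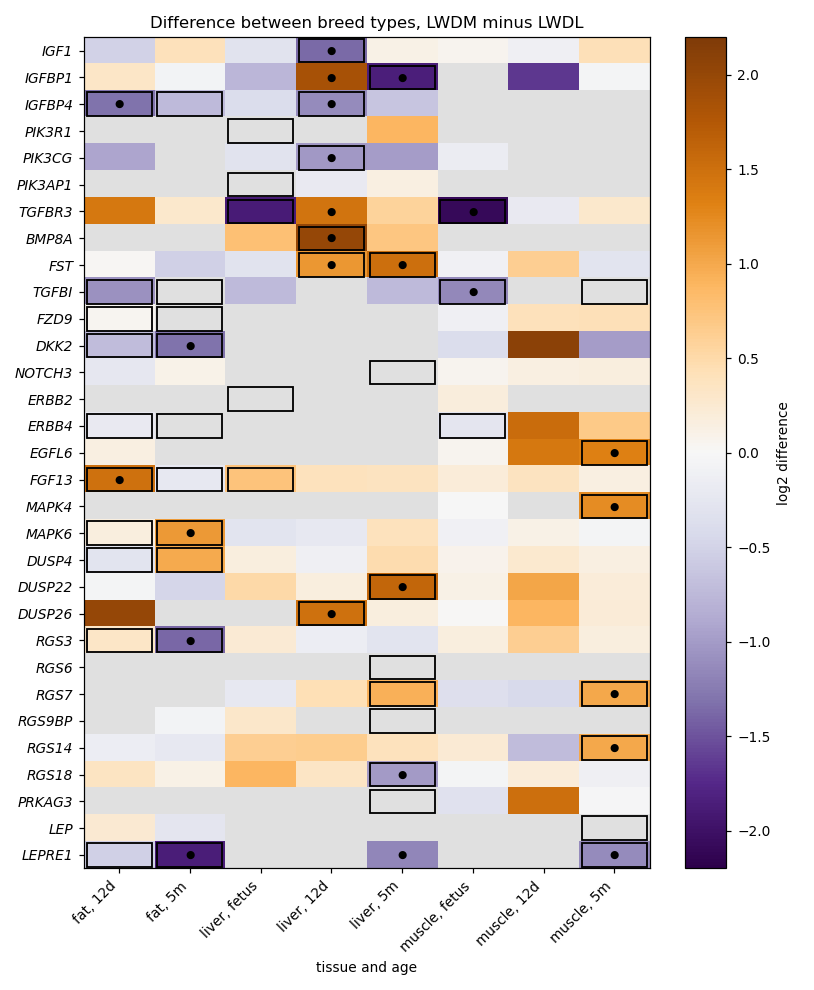
Breed type difference (LWDM minus LWDL, log2, colour) for the 31 genes in rows and the 8 comparisons in columns. A dot marks a called difference, a black frame a comparison for which the gene was listed (in fat, at either age) and which is a description only, and grey a gene that was not tested. Called differences outside a frame are IGFBP1 and TGFBR3 in 12-day-old liver and LEPRE1 in 5-month-old liver.

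In 12-day-old liver, IGF1 and IGFBP4 were lower and IGFBP1 was higher in LWDM. The IGF1 log2 ratios of LWDL had values of 0.26, 0.73, 1.16, 1.45 and 0.52, and those of LWDM ran from -1.48 to 0.10 with a median of -0.44. The groups did not overlap, and the difference was -1.36 ± 0.29 (SE), as listed. For IGFBP4 the LWDL values had values of 1.99, 1.86, 2.04, 0.92 and 2.21, the LWDM values ran from 0.53 to 0.89 with a median of 0.62, and the difference was -1.13 ± 0.20 (SE). All LWDM arrays were below all LWDL arrays. IGFBP1 was not listed at this age. Its LWDL values had values of 0.07, -0.36, -0.02, -0.88 and 1.47 and its LWDM values ran from 0.87 to 2.75 with a median of 2.01, which overlapped, and LWDM was higher by 1.84 ± 0.43 (SE), adjusted p = 0.0202 (a 3.59-fold difference). PIK3CG, as listed, was lower in LWDM by -1.02 ± 0.21 (SE) without overlap, with values in LWDM that ran from -2.40 to -1.55 with a median of -1.80 and values in LWDL that had values of -0.17, -0.87, -0.66, -1.01 and -1.46. The call of IGFBP1 was lost with the t-test that the study's methods name (adjusted p = 0.058), with no filter on dim probes (0.0526) and in a fit over all liver arrays (0.0729). On the slide that held both breed types, with 2 arrays of each, the IGFBP1 difference was 2.78 (adjusted p = 0.12 with slide as a block).

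Of the TGF-beta family, FST and BMP8A were listed for 12-day-old liver and lay higher in LWDM. TGFBR3, which was not listed, was called higher as well, and TGFBI, well above background on 1 of 11 arrays, was not tested. BMP8A had values of -0.45, -0.53, -0.64, -2.14 and -1.08 in LWDL and ran from 0.57 to 1.75 with a median of 0.82 in LWDM, without overlap, with a difference of 2.01 ± 0.33 (SE). FST had values of -2.73, -0.88, -0.58, -1.90 and -1.42 in LWDL and ran from -0.8 to -0.00 with a median of -0.27 in LWDM, with overlap, a difference of 1.15 ± 0.32 (SE), and its 3 other probes gave 1.43 (the probe listed at this age), 1.11 and 1.09. TGFBR3 had values of 0.73, -0.58, 0.72, -1.63 and -0.95 in LWDL and ran from 0.53 to 1.69 with a median of 1.16 in LWDM. The groups overlapped, and LWDM was higher by 1.46 ± 0.41 (SE), adjusted p = 0.0466 for one probe and 1.45 ± 0.40 (SE), adjusted p = 0.0418 for the other. The call of TGFBR3 was lost when any of 9 of the 11 arrays was left out (adjusted p from 0.0536 to 0.0936), with the replicate number as a block (0.0893), with the t-test that the methods name (0.103) and with no filter on dim probes (0.0998). DUSP26, as listed, had values of -2.21, -1.30, -1.54, -2.78 and -2.05 in LWDL and ran from -0.77 to -0.25 with a median of -0.49 in LWDM, was well above background in LWDM arrays only, and LWDM was at least 1.3-fold higher. The 8 skeletal muscle fibre genes had a mean log2 ratio of 0.36 to 0.66 in LWDL and 0.42 to 0.82 in LWDM in these liver samples, and 4 of the 8 were well above background on no array of either breed type. RGS14, which was not listed in liver, was higher in LWDM by 0.64 ± 0.11 (SE), adjusted p = 0.00597, a difference under 2-fold.

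**Figure D4:**
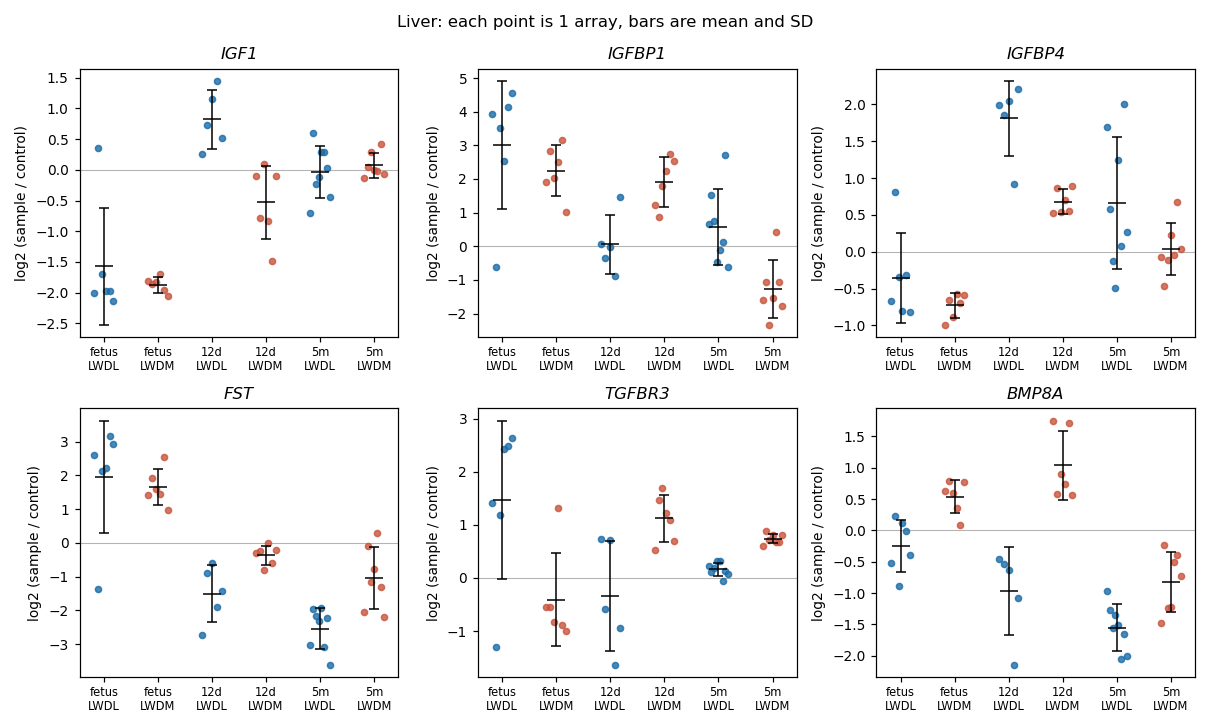
Log2 ratio to the control in liver for IGF1, IGFBP1, IGFBP4, FST, TGFBR3 and BMP8A by age and breed type (blue LWDL, red LWDM). Each point is 1 array, and the bars show the mean and the standard deviation. IGFBP1 is higher in LWDM at 12 days and lower at 5 months, and 1 fetal LWDL array lies apart from its group in most panels.

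In 5-month-old liver, IGFBP1 was lower in LWDM. Its values ran from -0.61 to 2.72 with a median of 0.39 in LWDL and ran from -2.33 to 0.43 with a median of -1.54 in LWDM, with overlap, a difference of -1.84 ± 0.47 (SE), as listed. This difference is opposite to that at 12 days. IGF1 at 5 months ran from -0.71 to 0.60 with a median of -0.04 in LWDL and ran from -0.14 to 0.42 with a median of -0.01 in LWDM, and did not pass the test (0.11 ± 0.17 (SE), adjusted p = 0.662). FST, as listed, ran from -3.60 to -1.94 with a median of -2.27 in LWDL and ran from -2.18 to 0.29 with a median of -1.16 in LWDM, with overlap and a difference of 1.51 ± 0.36 (SE). Its other probes gave 1.48, 1.36 and 1.32. DUSP22, as listed, ran from -0.62 to 1.22 with a median of 0.45 in LWDL and ran from 1.77 to 2.26 with a median of 2.15 in LWDM, without overlap, and the differences of its 2 probes were 1.60 and 1.96. RGS18, as listed, ran from -0.60 to 0.23 with a median of -0.09 in LWDL and ran from -1.51 to -0.81 with a median of -1.11 in LWDM, also without overlap, and was lower in LWDM by -1.01 ± 0.15 (SE). It lies at the edge of the 2-fold limit, and RGS7, listed in the same comparison through its dimmer probe, had a difference of 0.94 in the brighter one and lies just outside it.

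The probe named LEPRE1 was lower in LWDM in all 3 tissues at 5 months. Its name matched the leptin receptor family by its letters only, since the gene, now called P3H1, encodes a prolyl hydroxylase of collagen. In 5-month-old liver, for which it was not listed, it ran from 0.88 to 1.63 with a median of 1.28 in LWDL and ran from -0.43 to 1.03 with a median of -0.01 in LWDM, with overlap, and was lower by -1.16 ± 0.20 (SE), adjusted p = 0.00078. In fat it ran from 1.01 to 1.93 with a median of 1.49 in LWDL and ran from -1.11 to 0.57 with a median of -0.76 in LWDM, where it was well above background on no array, and was at least 1.27-fold lower. In muscle it ran from 1.46 to 2.22 with a median of 1.88 in LWDL and ran from 0.14 to 1.13 with a median of 0.74 in LWDM, without overlap, a difference of -1.12 ± 0.16 (SE). With normexp background correction and loess normalization the difference was -0.37 in fat, -0.26 in liver and -0.50 in muscle, all under 2-fold. COL1A2, a collagen gene of the fibroblast list, was lower in LWDM muscle at 5 months by 1.51 (adjusted p = 0.0137) and lower in LWDM fat by 0.67 (adjusted p = 0.0437), where it was under 2-fold. Its probe was named through the study's lists of breed type differences, so these values are a description.

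Several listed genes of 5-month-old liver did not pass the filter on dim probes. NOTCH3 ran from -1.70 to 0.42 with a median of 0.16 in LWDL and ran from 0.71 to 1.36 with a median of 0.89 in LWDM, without overlap. PRKAG3 was well above background in 3 of 8 LWDL arrays and in no LWDM array, RGS6 in 1 of 8 and 4 of 7, and RGS9BP in none. The second RGS7 probe was well above background in 4 LWDM arrays and no LWDL array.

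In fetal liver, 5 genes were listed, namely ERBB2, FGF13, PIK3AP1, PIK3R1 and TGFBR3, and none was called. TGFBR3 ran from -1.30 to 2.64 with a median of 1.92 in LWDL and ran from -1 to 1.32 with a median of -0.69 in LWDM. The lowest LWDL value was that of the array that stood apart, and the difference of -1.89 ± 0.65 (SE) became -2.44 ± 0.43 (SE) without it. FGF13 ran from -2.37 to 0.21 with a median of -2.02 in LWDL and ran from -1.34 to -0.77 with a median of -0.90 in LWDM. The difference was 0.75 ± 0.37 (SE), and 1.13 ± 0.13 (SE) without that array. Leaving it out moved the count of called member probes from 0 to 4. Of all tested probes 427 of 29485 were then called, against 244 of 29264 with it. Among the 4, those of FGF13 and TGFBR3 were listed for this comparison. IGFBP1, which was not listed in fetal liver, was then lower in LWDM by 1.49 (adjusted p = 0.036). PIK3R1 was well above background in 4 of 6 LWDL arrays and in no LWDM array. It ran from -4.78 to -0.44 with a median of -0.66 in LWDL and ran from -4.93 to -4.28 with a median of -4.64 in LWDM, and was at least 1.73-fold lower in LWDM. In fetal muscle, for which it was not listed, the same probe was well above background in the same numbers of arrays and was at least 2.12-fold lower in LWDM, with no test in either tissue. ERBB2 was well above background in 1 fetal liver array and PIK3AP1 in 3. PECAM1 of endothelium, itself listed here, had means of -1.41 in LWDM and -0.14 in LWDL fetal liver, and its part in the TGFBR3 difference was not tested.

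In fat at 12 days, FGF13 was higher and IGFBP4 was lower in LWDM. Both were listed for fat, under 5 months in the study's table, and with the ages of that table their 12-day differences were -0.07 and -0.43. FGF13 at 12 days had values of -0.94, -1.64, -0.63, -1.65 and -1.46 in LWDL and ran from 0.05 to 0.39 with a median of 0.24 in LWDM, with no overlap, and differences of 1.48 and 1.44 for its 2 probes. At 5 months it ran from -1.52 to -0.35 with a median of -0.95 in LWDL and ran from -1.70 to -0.88 with a median of -0.98 in LWDM, with a difference of -0.22 ± 0.19 (SE). FGF13 was high in muscle, and the mean of the muscle fibre genes ran from 3.63 to 5.06 in LWDL fat and from 4.40 to 5.48 in LWDM fat at 12 days. All 7 tested muscle fibre genes had higher means in LWDM, by 0.33 to 1.44, and none was called (lowest adjusted p = 0.0601). The study listed most of these genes as higher in LWDM fat, so this direction is a description only. The part of the fibre genes in the FGF13 difference was not tested. IGFBP4 at 12 days had values of 1.34, 1.13, 1.05, 0.81 and 1.40 in LWDL and ran from -0.65 to 0.07 with a median of -0.15 in LWDM, without overlap, a difference of -1.31 ± 0.15 (SE), in the same direction as in liver of the same age. At 5 months the IGFBP4 difference in fat was -0.73 ± 0.33 (SE), and -0.93 without LWDM replicate 3. PIK3CG, which was not listed in fat, was lower in LWDM at 12 days by -0.92 ± 0.23 (SE), adjusted p = 0.0387, under 2-fold and not called.

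At 5 months the 4 RGS3 probes were lower in LWDM fat. RGS3, DKK2, MAPK6 and LEPRE1 were listed for fat under 12 days in the study's table, and with the ages of that table their 5-month differences were -0.06, -0.29, 0.48 and -0.69. For the brightest, LWDL ran from 2.64 to 3.64 with a median of 3.03 and LWDM ran from 1.14 to 2.08 with a median of 1.74, without overlap, a difference of -1.38 ± 0.15 (SE), and the 3 others gave -1.62, -1.23 and -1.65. DKK2 ran from 5.71 to 8.17 with a median of 7.26 in LWDL and ran from 4.93 to 6.94 with a median of 5.68 in LWDM, with overlap, and its 2 probes differed by -1.31 and -1.43. MAPK6 was higher in LWDM. It ran from -2.26 to -0.92 with a median of -1.41 in LWDL and ran from -1.19 to 0.02 with a median of -0.13 in LWDM, and its 2 probes differed by 1.12 and 1.08. DUSP4, with a difference of 0.98 ± 0.29 (SE), was just under the 2-fold limit. At 5 months 4 of 5 tested muscle fibre genes were called higher in LWDM fat. Their mean per array ran from 0.82 to 2.78 in LWDL and from 2.47 to 4.34 in LWDM. The study listed most of these genes as higher in LWDM fat under 12 days, so the calls are a description only. RGS3 was lower in fat than in muscle at this age (-1.42, adjusted p = 2.48e-09). Without the LWDM array with the highest muscle fibre level, the differences were -1.42 for RGS3, -1.45 for DKK2 and 1.27 for MAPK6. LYZ, the only immune gene with a named probe, was higher in LWDM fat at this age by 2.14 (adjusted p = 0.00305), and PECAM1 of endothelium was lower by 1.39 (adjusted p = 0.00598). Both were named through the study's lists of breed type differences, so these values are a description. Their part in the differences of RGS3, DKK2 and MAPK6 was not tested. Listed for fat but not called at either age were DUSP4, ERBB4, FZD9 and TGFBI.

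**Figure D5:**
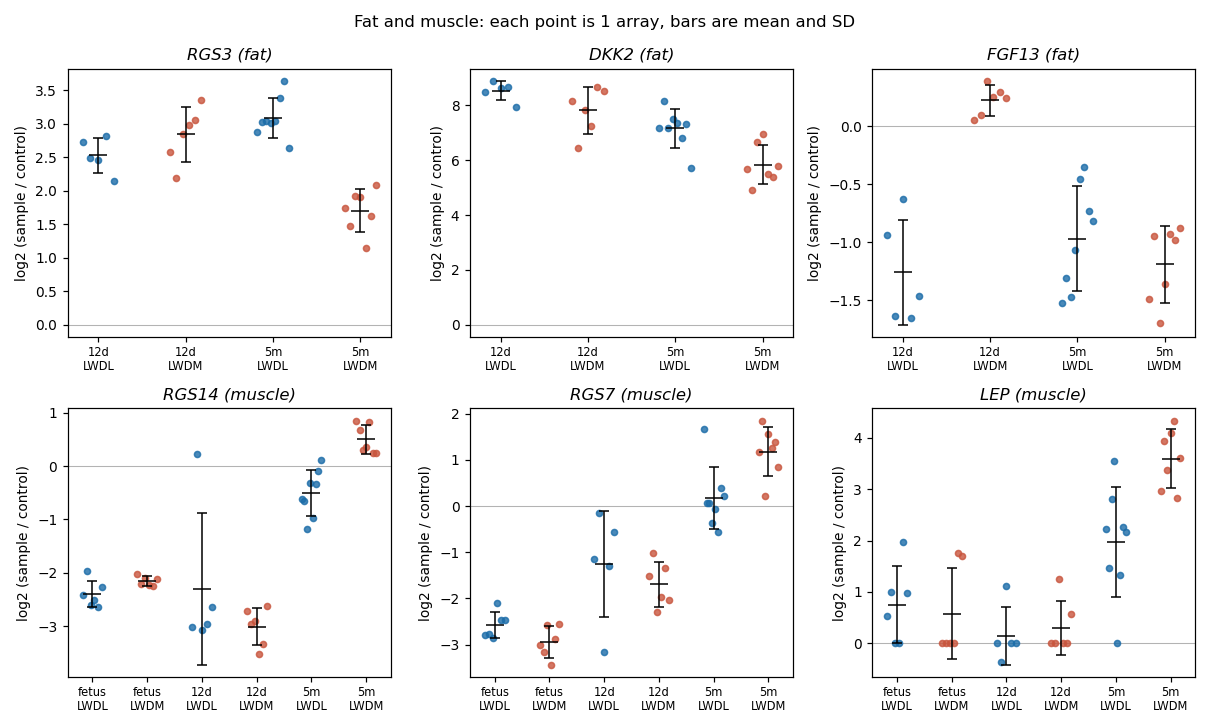
Log2 ratio to the control for RGS3, DKK2 and FGF13 in fat (upper row) and RGS14, RGS7 and LEP in muscle (lower row) by age and breed type (blue LWDL, red LWDM). Each point is 1 array, and the bars show the mean and the standard deviation. RGS3 is lower in LWDM fat at 5 months, and all 7 LWDM muscle arrays at 5 months exceed the LWDL arrays in RGS14.

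In fetal muscle, TGFBR3 and TGFBI were lower in LWDM, as listed. TGFBR3 ran from 1.93 to 3.26 with a median of 2.57 in LWDL and ran from -0.06 to 2.13 with a median of 0.15 in LWDM, with overlap through 1 LWDM array, and differences of -2.09 and -2.14 for its 2 probes. TGFBI ran from -0.37 to 0.63 with a median of -0.07 in LWDL and ran from -2.14 to -0.73 with a median of -1.03 in LWDM, without overlap, a difference of -1.15 ± 0.24 (SE), and was well above background on 2 of 6 LWDM arrays. PECAM1, the only endothelial marker with a named probe and itself listed here, was lower in LWDM fetal muscle too, with means of -1.57 and 0.38, and its part in the TGFBR3 and TGFBI differences was not tested. ERBB4 was listed too, and its brighter probe differed by -0.27 ± 0.34 (SE), while the other was too dim to be tested. Both TGFBR3 probes thus lay lower in LWDM in the fetus, in liver without the array that stood apart and in muscle, and higher in LWDM liver at 12 days. At 5 months TGFBR3 ran from -0.06 to 0.31 with a median of 0.16 in LWDL liver and ran from 0.61 to 0.88 with a median of 0.71 in LWDM liver, without overlap, and was higher in LWDM by 0.58 ± 0.07 (SE), adjusted p = 2.22e-05, under 2-fold.

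In 12-day-old muscle no gene was listed, and no member probe was called. Of 31 tested member probes, 2 had an unadjusted p under 0.05, as had 793 of all probes. Without the array that stood apart the counts were 3 and 1077, and limma called none of 27966 probes. The breed type of 8 of these 11 arrays was in doubt.

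In 5-month-old muscle, 7 genes were listed and 5 were called. RGS14 was higher in LWDM. It ran from -1.18 to 0.11 with a median of -0.47 in LWDL and ran from 0.24 to 0.85 with a median of 0.36 in LWDM, without overlap, a difference of 1.01 ± 0.18 (SE). In liver, for which it was not listed, RGS14 was higher in LWDM at each age, by 0.63 in fetuses, 0.64 at 12 days and 0.39 at 5 months (adjusted p = 0.0177, 0.00597 and 0.0181), all under 2-fold. Without the fetal liver array that stood apart, the fetal difference was 0.51 (adjusted p = 0.000266). EGFL6 ran from 2.57 to 4.09 with a median of 3.05 in LWDL and ran from 3.78 to 5.35 with a median of 4.56 in LWDM, and its 2 probes differed by 1.34 and 1.54. RGS7 ran from -0.56 to 1.66 with a median of 0.07 in LWDL and ran from 0.21 to 1.85 with a median of 1.25 in LWDM, a difference of 1.01 ± 0.29 (SE), just inside the 2-fold limit. The probe named MAPK4 differed by 1.23 ± 0.36 (SE).

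LEP was listed in 5-month-old muscle but did not pass the filter on dim probes. It was well above background in 2 of 8 LWDL and 6 of 7 LWDM arrays. Its log2 ratios ran from 0.00 to 3.55 with a median of 2.19 in LWDL and ran from 2.83 to 4.33 with a median of 3.61 in LWDM, with overlap, a difference of the means of 1.61. Of the adipocyte genes, PLIN1 was well above background on 4 of 8 LWDL arrays and on no LWDM array, LPL differed by 0.07 (adjusted p = 0.702) and PPARG by 0.23 (adjusted p = 0.249), and the mean of the 3 per array ran from 2.96 to 3.75 in LWDL and from 2.74 to 3.51 in LWDM. In fat LEP did not pass the test between the breed types at 12 days (0.25 ± 0.18 (SE), adjusted p = 0.447), and at 5 months the difference was -0.26 ± 0.10 (SE), adjusted p = 0.0549, under 2-fold. The mean log2 Cy3 signal of LEP in 5-month-old fat was 12.03 in LWDL and 14.03 in LWDM, and the Cy5 signal of the control was 7.28 and 9.61, so the channels and the ratio differ here as well. TGFBI, listed in 5-month-old muscle, ran from -1.63 to -0.72 with a median of -0.94 in LWDL and ran from -3.77 to -2.19 with a median of -2.63 in LWDM, where it was well above background on no array, and was at least 1.23-fold lower. IGF1, not listed in muscle, was higher in LWDM at 5 months. It ran from -1.47 to -1.11 with a median of -1.35 in LWDL and ran from -1.09 to -0.55 with a median of -0.93 in LWDM, and differed by 0.42 ± 0.09 (SE), adjusted p = 0.00222, under 2-fold.

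Under normexp background correction with loess normalization, 18 of the 26 called breed type differences of genes were no longer called, all with a difference no larger than 2-fold except TGFBR3 in liver at 12 days (1.34, adjusted p = 0.0549). The differences that were called under both were those of FGF13 in fat at 12 days, DKK2, MAPK6 and RGS3 in fat at 5 months, IGFBP1 in liver at 12 days and at 5 months, DUSP22 in liver at 5 months and TGFBR3 in fetal muscle. At 12 days and in fetuses 1 of 3 slides held both breed types, with 2 arrays of each, and at 5 months each slide held 1 breed type. With the slide as a block no member probe was called in 12-day-old fat and liver or in fetal muscle. Of the 26 called differences of genes, 14 lost their call under this block and 0 turned their direction. The sizes of those that lost it were in part larger and in part smaller than before.

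Whether the breed type difference itself changed with age was tested for genes listed at neither age. A change was taken at an adjusted p under 0.05 with no limit on its size. The share of all probes with such a change is not given, so nothing is read from the number of members. IGF1 in fat had values of 1.10, 0.74, 0.93, 1.45 and 1.07 in LWDL and ran from -0.13 to 0.91 with a median of 0.64 in LWDM at 12 days, and ran from -0.61 to 0.25 with a median of -0.11 in LWDL and ran from -0.06 to 0.62 with a median of 0.33 in LWDM at 5 months. The difference was -0.5 ± 0.18 (SE), adjusted p = 0.129, at 12 days and 0.40 ± 0.14 (SE), adjusted p = 0.0361, at 5 months, and it changed by 0.89 (adjusted p = 0.0149). DUSP22 in fat differed by -0.04 at 12 days and -0.48 at 5 months, a change of -0.44 (adjusted p = 0.00933). MAPK6 in liver differed by -0.22 at 12 days and 0.39 at 5 months, and the changes for its 2 probes were 0.57 and 0.61 (adjusted p = 0.0219 and 0.0309). For FST in muscle between 12 days and 5 months, the difference changed by -0.97 to -0.91 in 3 of 4 probes (adjusted p from 0.0178 to 0.0462), but this rests on the 12-day-old muscle arrays whose breed type was in doubt.

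Among the other genes of the pathway lists used here, GHR and TCF7L2 had a named probe. GHR, the growth hormone receptor, was listed for fetal muscle, where it differed by -1.01. It was lower in LWDM fat at 5 months by 0.69 (adjusted p = 0.000413), under 2-fold, and did not pass the test in 5-month-old liver (0.20, adjusted p = 0.36) or muscle (0.23, adjusted p = 0.417). TCF7L2, a transcription factor of Wnt signalling, was lower in LWDM by 1.31 in fat at 12 days (adjusted p = 0.0304) and by 1.12 in liver at 12 days (adjusted p = 0.025). It was listed for fetal liver and fetal muscle, where it differed by -1.47 and -1.69. Both were chosen by the same lists as the members.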

How the data were processed

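Gene expression was measured with 102 two-colour Agilent oligonucleotide arrays of pig genes (43221 probes beside 1417 control spots), and samples were grouped by the tissue, age and breed type in their labels. The authors processed the scans with Agilent Feature Extraction 9.5, and the deposited files hold, for each spot, background-subtracted, dye-normalized Cy3 and Cy5 intensities and their log10 ratio of Cy5 over Cy3. The series table, deposited as log10 of Cy3 over Cy5, differed from these by at most 0.005. Here the sign was turned, the ratio put on the log2 scale and control and outlier spots were left out. All columns were assigned to a sample.

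Differences were fitted with limma 3.58.1 in R 4.3.3 (lmFit and eBayes, two-sided) over all probes whose Cy3 signal the scanner software marked as well above background on all arrays of a group, with at least 3 values per group, and the method was tested on simulated data. Breed types were compared within a tissue and age, and ages and tissues with breed type in the model. P-values measure the spread between animals, which were sibs within a breed type, and were adjusted over all tested probes. All 31 genes are named, each by its probe with the highest mean Cy3 signal. The members, gene lists and marker lists were chosen with earlier results of these data known. Markers had a named probe only where the study listed them for a breed type difference, so their breed type differences are a description. The number of arrays limits the precision. Gene names came from the study's tables, and RefSeq gave the same symbol for 30 of the 45 probes and another for 2 (LEPRE1 and MAPK4), while 13 probes could not be looked up. Alternatives were normexp background correction (offset 50) with loess, no filter on dim probes, the methods' t-test, the slide or replicate number as a block, a fit over the whole tissue, other ages for fat, each breed type alone, and leaving out arrays. The leave-out of the arrays that stood apart in the test of breed type by age, and the other fat ages in the comparison of tissues, were chosen after seeing the data. The tables' own fold changes and p-values were not used.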

Additional observations from a re-analysis of the deposited data

Results flagged for a closer look

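Over the called or listed breed type differences, 82 groups of arrays were searched for a sample far from the others, and 10 were found, where chance gives about 1 in 20. In fetal liver, LWDL replicate 2, the array that stood apart, was alone at 0.21 for FGF13 (next value -1.82) and at -1.3 for TGFBR3 (next 1.18). LWDM replicate 4 was alone for TGFBR3 in fetal liver (1.32, next -0.54) and also in fetal muscle (2.13, next 0.52). IGFBP4 had a lone low value of -0.65 in fat of LWDM replicate 5 at 12 days (next -0.16), a lone high value of 0.4 in fat of LWDM replicate 3 at 5 months (next -0.82) and a lone low value of 0.92 in liver of LWDL replicate 4 at 12 days (next 1.86). The fat array of LWDM replicate 3 also had the highest muscle fibre level of its group. TGFBI was alone at -1.17 in fat of LWDL replicate 5 at 12 days (next -0.15) and at 0.63 in fetal muscle of LWDL replicate 5 (next -0.01). RGS7 was alone at 1.66 in muscle of LWDL replicate 1 at 5 months (next 0.39).

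The breed type difference changed between 12 days and 5 months, by limma's test of the change, for IGF1 in fat (0.89), DUSP22 in fat (-0.44), both MAPK6 probes in liver (0.57 and 0.61) and 3 of the 4 FST probes in muscle (-0.91, -0.97 and -0.93), with adjusted p from 0.00933 to 0.0462. Without the arrays that stood apart the FST changes were -0.55 to -0.65, and the breed type of most 12-day-old muscle arrays was in doubt.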

How the results depend on the processing

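Counts of called member probes that moved by over 1.5 times are given here. These counts and the leave-out counts below are not set against the share of all probes in the same setting. Nothing particular to these genes is read from them. With normexp and loess the counts were 1 in place of 12 for breed type in 12-day-old liver, 2 for 9 in 5-month-old liver, 0 for 6 in 5-month-old muscle, 7 for 12 between fetal and 12-day-old liver, 2 for 11 between 12-day-old and 5-month-old liver and 20 for 31 between liver and muscle at 5 months. Without the filter on dim probes the breed type counts were 6 in 12-day-old liver, 14 in 5-month-old liver and 5 in place of 3 in fetal muscle, and 11 in place of 7 between 12-day-old and 5-month-old muscle. The methods' t-test gave 6 in 12-day-old liver. With the slide as a block none was left in 12-day-old fat (3 before), 12-day-old liver and fetal muscle. A single fit per tissue gave 5 in 12-day-old fat, 2 in place of 0 in fetal liver, 7 in 12-day-old liver and 3 in 5-month-old muscle. Between 12-day-old and 5-month-old fat 18 probes were called in LWDM alone in place of 11, and between 12-day-old and 5-month-old muscle 4 in LWDL alone. With the ages of the study's table the breed type counts in fat were 10 at 12 days and 3 in place of 9 at 5 months, and the age count was 5. The test of breed type by age gave 12 member probes with an adjusted p under 0.05, with no limit on size, in place of 7 without the arrays that stood apart.

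Leaving out 1 array at a time gave 3 to 5 calls in 12-day-old fat, 8 to 10 in 5-month-old fat, 0 to 4 in fetal, 6 to 11 in 12-day-old and 8 to 11 in 5-month-old liver, and 2 to 4, 0 to 0 and 4 to 7 in muscle. In fetal liver the 4 came without LWDL replicate 2.

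Replicate numbers of the breed types did not pair the arrays, since in no comparison did every pair correlate above 0.1. With the replicate block 5 probes were called in 12-day-old liver, 23 of the 26 called breed type differences were kept, and all 38 age and 122 of 123 tissue calls were kept.

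The directions that turned were, with the ages of the study's table, FGF13 in 12-day-old fat (-0.07), the change with age in fat of DUSP26 (2.42), LEP (1), RGS9BP (-1.27), TGFBR3 (0.93) and DKK2 (1.02), and DUSP26 between fat and liver at 12 days (-0.8) and 5 months (1.39). PIK3R1 between 12-day-old and 5-month-old liver turned with normexp and loess (-0.02), and IGFBP1 in LWDL alone (0.51). With normexp and loess 8 of 26 breed type, 18 of 38 age and 85 of 123 tissue calls of genes were kept. The cause was not tested. The signal of a spot was 2.36 to 5.6 times its background in the median of an array and the mean Cy3 intensity of a member probe ran from 11.7 to 31000.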
